A study of Mus musculus with 6 samples.

Results

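AP-1 and immediate early factors were followed in inguinal white adipose tissue, the large subcutaneous fat depot of the mouse, after removal of Cebpa from adipocytes. The group was set by gene symbol and holds 10 genes of the 36144 symbols in the deposited table: Fos, Fosb, Fosl1 and Fosl2 of the Fos family, Jun, Junb and Jund of the Jun family, the small Maf gene Maff, the zinc finger factor Egr1, and Ier2. The RNA came from 10-week-old female mice on a C57BL6/J background, fed chow ad libitum, with both inguinal depots of a mouse extracted together and the lymph nodes removed. The 3 control mice were Cebpa_fl/fl; AdipoQ-Cre-, called Cebpa_fl/fl here, and the 3 knockout mice were Cebpa_fl/fl; AdipoQ-Cre+, called Cebpa_ASKO. Both genotypes therefore carried floxed Cebpa alleles, they were littermates, and all 6 libraries had the same batch label. The adiponectin promoter drives AdipoQ-Cre late in adipocyte differentiation, which leaves Cebpa in place in vessels, immune cells and progenitors. In whole tissue, fewer cells of a type and less RNA per cell cannot be told apart.

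AP-1 is a dimer of basic leucine zipper proteins that binds short palindromic DNA elements, and it is built from a Jun protein paired with a Fos, Jun or ATF protein. Fos proteins do not pair with each other, whereas Jun proteins can. Most genes of the group are immediate early genes, which are transcribed within minutes of a stimulus from factors already present in the cell, and their mRNAs are short-lived. C/EBP alpha, the product of Cebpa, is itself a basic leucine zipper factor and a central regulator of adipocyte differentiation.

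Cebpa was first measured in every library as a check of the labels. It lay at 448, 465 and 498 CPM (the share of the library's counts scaled by TMM, edgeR's correction for library composition) in Cebpa_fl/fl and at 37.7, 45.8 and 37.2 CPM in Cebpa_ASKO. The change was -3.55 on the log2 scale (SE 0.131, adjusted p = 0.000163 edgeR's quasi-likelihood test, Benjamini-Hochberg adjusted over 16069 genes). The libraries held between 33141769 and 49477671 estimated counts, and mice of 1 genotype differed beyond counting noise. Each p-value sets the genotype difference against the spread between mice, estimated from 3 a genotype with information shared over all genes tested. Marker genes of cell types moved with genotype. Of 10 adipocyte markers, 7 were called lower in Cebpa_ASKO, and their summed level ran from 32452 to 39870 CPM in Cebpa_fl/fl and from 9309 to 11419 CPM in Cebpa_ASKO. Of 12 skeletal muscle markers, 10 were called higher, with summed levels of 598 to 818 CPM in Cebpa_fl/fl and 1999 to 5776 CPM in Cebpa_ASKO. Summed macrophage markers overlapped between genotypes, from 1192 to 3150 CPM against 1951 to 2650 CPM, as did fibroblast and progenitor markers, from 8134 to 14178 CPM against 9640 to 11934 CPM. Summed endothelial markers, 2 of 8 called lower, did not overlap, from 362 to 435 CPM in Cebpa_fl/fl against 271 to 356 CPM in Cebpa_ASKO. Smooth muscle and pericyte markers, from 648 to 799 CPM against 809 to 1019 CPM, and mammary epithelium markers, from 623 to 1217 CPM against 1560 to 1716 CPM, did not overlap either. No marker of these lists was at 0 in every library. The part of these cell types in the changes given below was not tested.

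Jun and Fosl2 were higher in Cebpa_ASKO than in Cebpa_fl/fl, by 1.48-fold and 1.43-fold in mean CPM. These were the 2 genes called among the 9 that had enough counts to be tested, and 0 were called lower. At an unadjusted p below 0.05 there were 3, with Jund added, all higher, as were 9.44% of all genes. DESeq2 also called 2, Jun and Fosl2, and it called 3.98% of all genes higher. Over all 16069 genes tested, 5.23% were called at an adjusted p below 0.05, with 1.39% called higher and 3.84% called lower. Fos itself differed by 0.026 on the log2 scale, with overlapping genotypes. The median log2 fold change of the 9 genes was 0.23, with 6 positive and 3 negative, against 0.025 over all genes tested. Of all genes tested, 8664 were positive and 7405 negative, which is the background for the sign counts of every list below. No library of Cebpa_ASKO fell below a library of Cebpa_fl/fl for Jun, Fosl2 or Jund, and 12.9% of all genes tested had the groups apart in this direction, or 26.1% in either direction.

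The Jun and Fos promoters are shown because Jun carried the largest called change of the group and Fos, its classical partner, carried almost none. Both are the 250 bases before the RefSeq transcription start in GRCm38.p6, read 5′ to 3′ on the strand of the gene. The Jun window is chr4:95052223-95052472 on the minus strand, with a CCAAT box and a TGACATCA element in capitals. The Fos window is chr12:85473640-85473889 on the plus strand, with TGACGT, the first bases of the cAMP response element, in capitals.
Jun: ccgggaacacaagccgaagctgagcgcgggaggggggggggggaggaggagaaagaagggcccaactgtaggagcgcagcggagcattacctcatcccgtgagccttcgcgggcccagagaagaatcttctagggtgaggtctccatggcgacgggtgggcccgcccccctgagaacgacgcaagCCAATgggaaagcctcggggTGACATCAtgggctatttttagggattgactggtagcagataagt
Fos: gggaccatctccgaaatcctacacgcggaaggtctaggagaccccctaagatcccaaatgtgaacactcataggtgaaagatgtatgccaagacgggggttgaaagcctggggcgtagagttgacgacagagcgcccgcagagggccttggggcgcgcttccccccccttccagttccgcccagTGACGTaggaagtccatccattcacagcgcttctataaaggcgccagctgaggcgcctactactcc
The TGACATCA element of Jun began 45 bases before the start and matches TGACNTCA, the form of site bound by AP-1 and ATF dimers. A search of both strands found TGACNTCA in 7.49% of 32851 RefSeq promoters of this length. The CCAAT box of Jun began 65 bases before the start, and CCAAT was present in 33.8% of the promoters. A match to the MEF2 site began 33 bases before the Jun start, a motif held by 0.508% of the promoters. In Fos, TGACGT began 66 bases before the start, and 6.47% of the promoters held it. TGACGT overlaps TGACNTCA wherever N is G.

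RefSeq gave promoters for 7 of the 10 genes (not for Egr1, Fosl1 and Ier2), with 3 starts for Maff and 9 windows in all. Maff held TTGCNNAA, the core shared by C/EBP sites, 55 bases before the first of its listed starts. It held TGACNTCA 29 bases before the second listed start and 45 bases before the third. TTGCNNAA was present in 9.56% of all promoters and was also found 152 bases before the Jund start. Junb held CCAAT 36 bases before its start. TGANTCA, a wider pattern that takes in the canonical AP-1 element, was found in 6.75% of all promoters. This pattern and the serum response element, found in 1.47%, were in none of the 9 windows. Sites more than 250 bases upstream, and any site of Egr1, Fosl1 or Ier2, lay outside the search, so their absence is not shown. None of the searched motifs was found in the Fosb and Fosl2 windows. The motifs were chosen after the sequences were seen, and a match describes letters in these windows and not a bound site.

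Levels were compared between genes on the authors' TPM, a share of transcripts that is corrected for length. In Cebpa_fl/fl, Jund had the highest level of the group, at 118.5 ± 8.07 TPM (SD, n = 3). The next 5 were Egr1 at 25.2 ± 10.3 TPM, Jun at 22.9 ± 3.97 TPM, Ier2 at 20.9 ± 4.01 TPM, Junb at 20.8 ± 4.61 TPM and Fos at 19.8 ± 6.03 TPM. The libraries of these 5 genes overlapped, so their order is not resolved. Fosl2 followed at 8.38 ± 0.572 TPM, with no library inside the range of any gene above it. Maff at 3.06 ± 0.852 TPM and Fosb at 1.53 ± 0.924 TPM overlapped each other. Fosl1 lay at 0.0911 ± 0.0662 TPM, below all of them.

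In Cebpa_ASKO, Jund was again at the top, at 154 ± 27.2 TPM, and Fosl1 at the bottom, at 0.176 ± 0.0086 TPM. Jun stood at 35.2 ± 3.14 TPM and Fosl2 at 12.6 ± 1.96 TPM. Jun lay above all 3 Fos libraries, which reached 30.7 TPM, while it overlapped Junb, Egr1 and Ier2. The lowest Egr1 library, at 7.55 TPM, was under all 3 Fosl2 libraries, and Egr1 and Fosl2 overlapped. Maff, at 3.85 ± 0.635 TPM, no longer overlapped Fosb, at 1.49 ± 0.309 TPM.

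**Figure D1:**
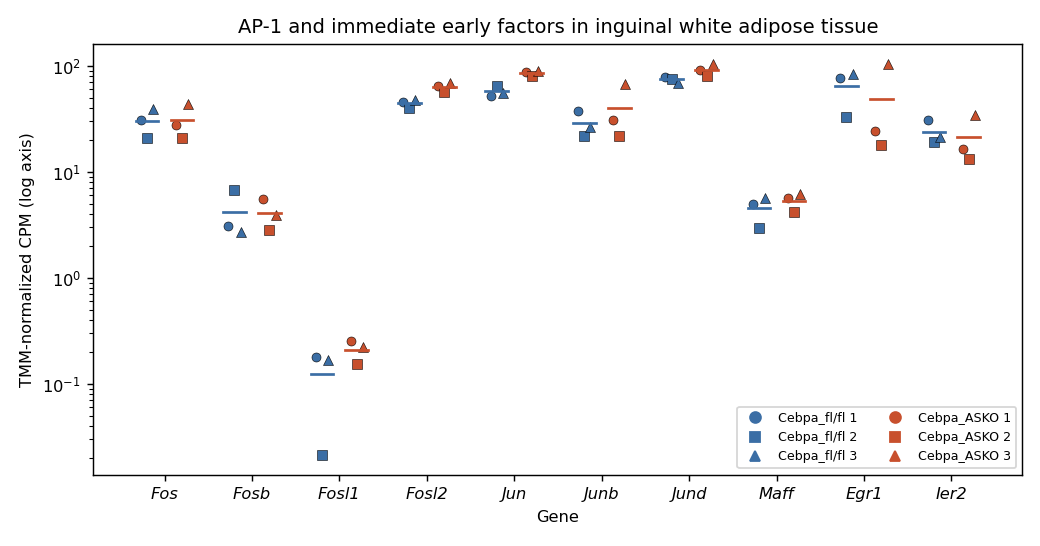
TMM-normalized CPM of each gene (log axis) in 3 Cebpa_fl/fl libraries (blue) and 3 Cebpa_ASKO libraries (orange), with replicate number as the marker shape and the mean as a bar. The Jun, Fosl2 and Jund libraries of the genotypes do not overlap, and Egr1 in Cebpa_ASKO runs from 17.9 to 104 CPM.

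Among the Jun family, Jun encodes c-Jun, the strongest transcriptional activator of the family, and it is a single-exon gene on chromosome 4 (95049034 to 95052222, minus strand, GRCm38). Its levels were 52.2, 65.4 and 56.2 CPM in Cebpa_fl/fl and 88.3, 79.9 and 89.0 CPM in Cebpa_ASKO. All 3 Cebpa_ASKO libraries were above all 3 Cebpa_fl/fl libraries, and the means were 57.9 ± 6.78 and 85.7 ± 5.10 CPM (SD, n = 3). Its log2 fold change was 0.57 (SE 0.108, adjusted p = 0.0341 by edgeR's quasi-likelihood test). The size held when any 1 library was left out, from 0.50 to 0.65, but the call did not. It was kept without Cebpa_fl/fl 2 (adjusted p = 0.0147) and lost without Cebpa_fl/fl 1 (0.105), Cebpa_fl/fl 3 (0.101), Cebpa_ASKO 1 (0.140), Cebpa_ASKO 2 (0.0938) or Cebpa_ASKO 3 (0.0941). The antisense gene Junos overlaps Jun, and because the strand setting of the counting is not given in the sources used here, reads of the pair cannot be told apart.

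Jund encodes the Jun protein that is made in most resting cells, and it depends least on stimulation. It measured 78.0, 75.9 and 69.7 CPM in Cebpa_fl/fl and 91.8, 80.5 and 105 CPM in Cebpa_ASKO. The lowest Cebpa_ASKO library lay just above the highest Cebpa_fl/fl library, and the means differed by 1.24-fold. A log2 fold change of 0.31 (SE 0.116) did not pass edgeR's quasi-likelihood test (adjusted p = 0.202). The authors' estimated counts for Jund are split equally with a further transcript of the same length of 1668 bases, so the CPM cover 1 of the 2 equal parts of the reads while the TPM cover all of them. Summing both parts scales the Jund count of every library alike, so the log2 fold change of 0.31 could not move and is no check. Gm11175, an antisense gene, lies within Jund.

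Junb encodes a Jun protein that activates weakly and can restrain c-Jun. Its levels were 37.9, 22.0 and 26.8 CPM in Cebpa_fl/fl and 31.2, 21.7 and 67.9 CPM in Cebpa_ASKO. Cebpa_ASKO 3 stood far above the other 5 libraries, and the remaining Cebpa_ASKO libraries lay within the range of Cebpa_fl/fl or just under it. Its log2 fold change of 0.48 (SE 0.427, adjusted p = 0.619) became -0.15 without Cebpa_ASKO 3. The last bases of Junb overlap Prdx2 on the opposite strand, with which reads could be shared.

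Summed over the Jun family, the level was 162, 171 and 153 TPM in Cebpa_fl/fl and 193, 189 and 279 TPM in Cebpa_ASKO. Jund supplied 72.1%, 74.3% and 72.7% of the sum in Cebpa_fl/fl and 71.7%, 73.1% and 66.5% in Cebpa_ASKO. The genotypes thus overlapped in the share of Jund while they did not overlap in the sum.

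Fosl2 encodes Fra-2, a Fos-related protein without the strong activation domain of c-Fos, and the gene lies on chromosome 5 (32135801 to 32157842, plus strand). It measured 45.7, 39.9 and 47.6 CPM in Cebpa_fl/fl and 64.1, 57.3 and 69.4 CPM in Cebpa_ASKO. The lowest Cebpa_ASKO library exceeded the highest Cebpa_fl/fl library, with means of 44.4 ± 4.01 and 63.6 ± 6.03 CPM (SD, n = 3). Its log2 fold change was 0.52 (SE 0.108, adjusted p = 0.0446 by edgeR's quasi-likelihood test). The call was close to the threshold and was lost whichever library was left out, with log2 fold changes of 0.43 to 0.57. The adjusted p was then 0.120, 0.0754 and 0.0817 without Cebpa_fl/fl 1, 2 and 3, and 0.163, 0.0793 and 0.106 without Cebpa_ASKO 1, 2 and 3. Between 93.9% and 99.4% of Fosl2 TPM came from the 4-exon transcript Fosl2-201 in every library.

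Fos encodes c-Fos, the founding immediate early gene product and a partner that needs Jun to bind DNA, and it lies on chromosome 12 (85473890 to 85477273, plus strand). It was at 30.9, 21.1 and 38.9 CPM in Cebpa_fl/fl and at 27.9, 20.9 and 43.7 CPM in Cebpa_ASKO. The genotypes overlapped throughout, and replicate 2 was the lowest library of each. The log2 fold change was 0.026 (SE 0.318, adjusted p = 0.977 by edgeR's quasi-likelihood test), and it ran from -0.33 to 0.25 with 1 library left out. The full-length transcript Fos-201 gave 82.7% to 95.1% of Fos TPM.

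Fosb, whose full-length and truncated (delta FosB) proteins differ in their activation domain, was low. It measured 3.12, 6.78 and 2.73 CPM in Cebpa_fl/fl and 5.52, 2.83 and 3.88 CPM in Cebpa_ASKO, and its highest library was Cebpa_fl/fl 2. Genotypes overlapped, with a log2 fold change of -0.05 (SE 0.418, adjusted p = 0.969). Fosb-201 gave 50.6% to 73.6% of Fosb TPM in Cebpa_fl/fl and 71.8% to 91.5% in Cebpa_ASKO, with overlapping ranges. Fosb-207 gave 34.0%, 4.90% and 18.5% in Cebpa_fl/fl and 0%, 1.62% and 8.44% in Cebpa_ASKO. At these levels kallisto divides few reads among similar transcripts, so the shares were not tested.

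Fosl1, which encodes Fra-1, was at the edge of detection. It had 8, 1 and 8 estimated counts in Cebpa_fl/fl and 8, 6 and 10 in Cebpa_ASKO, and edgeR's default filter on low counts removed it from the test. In CPM these are 0.178, 0.0212 and 0.170 against 0.254, 0.153 and 0.224. The genotypes overlapped, and a difference was not detectable at this depth.

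The Fos family together measured 28.4, 24.8 and 36.3 TPM in Cebpa_fl/fl and 31.4, 28.8 and 47.2 TPM in Cebpa_ASKO, with overlapping genotypes. Fosl2 made up 29.1%, 31.8% and 24.8% of it in Cebpa_fl/fl and 36.1%, 40.5% and 31.6% in Cebpa_ASKO. The lowest Cebpa_ASKO share lay below the highest Cebpa_fl/fl share.

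Maff encodes a small Maf protein, a basic leucine zipper factor without an activation domain that pairs with CNC family proteins. Its levels were 4.99, 2.95 and 5.72 CPM in Cebpa_fl/fl and 5.67, 4.16 and 6.17 CPM in Cebpa_ASKO, and the genotypes overlapped. A log2 fold change of 0.23 was fitted (SE 0.290, adjusted p = 0.747). Maff-201 carried 61.2%, 35.1% and 81.8% of Maff TPM in Cebpa_fl/fl and 82.7%, 56.7% and 82.2% in Cebpa_ASKO, and Maff-202 carried most of the rest, up to 61.9% in Cebpa_fl/fl 2. In both genotypes replicate 2 had the lowest Maff level and the lowest share of Maff-201.

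Egr1 encodes a zinc finger factor that binds GC-rich sites and is induced through serum response factor. It measured 77.1, 33.0 and 83.9 CPM in Cebpa_fl/fl and 24.2, 17.9 and 104 CPM in Cebpa_ASKO. The highest and the lowest of the 6 libraries were both Cebpa_ASKO, so the difference of -0.40 on the log2 scale (SE 0.701, adjusted p = 0.822) was smaller than the spread within the genotype. Without Cebpa_ASKO 3 the value was -1.64, still not called (adjusted p = 0.112), and without Cebpa_ASKO 2 it was -0.015. Egr1-202 gave 88.1% to 91.9% of Egr1 TPM, a nearly constant share across libraries whose levels differed widely.

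Ier2 encodes a small nuclear protein of the immediate early response. Its levels were 30.7, 19.4 and 21.6 CPM in Cebpa_fl/fl and 16.4, 13.1 and 34.2 CPM in Cebpa_ASKO. As with Egr1, Cebpa_ASKO held both the highest and the lowest library. The log2 fold change was -0.17 (SE 0.373, adjusted p = 0.868), and it was -0.71 without Cebpa_ASKO 3.

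The factors fell apart by how much mice of 1 genotype differed. The SD of log2 CPM within genotype was 1.09 for Egr1, 0.657 for Junb, 0.566 for Ier2 and 0.494 for Fos, against a median of 0.203 over all genes tested. Set among genes within 0.5 of their mean log2 CPM, these spreads lay at percentiles 99.7, 98.1, 95.9 and 94.6. The same SD was 0.133 for Jun, 0.136 for Fosl2 and 0.150 for Jund, at percentiles 53.4, 56.2 and 60.0. Fosb and Maff, which are low, had SDs of 0.599 and 0.411, at percentiles 85.8 and 73.6.

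**Figure D2:**
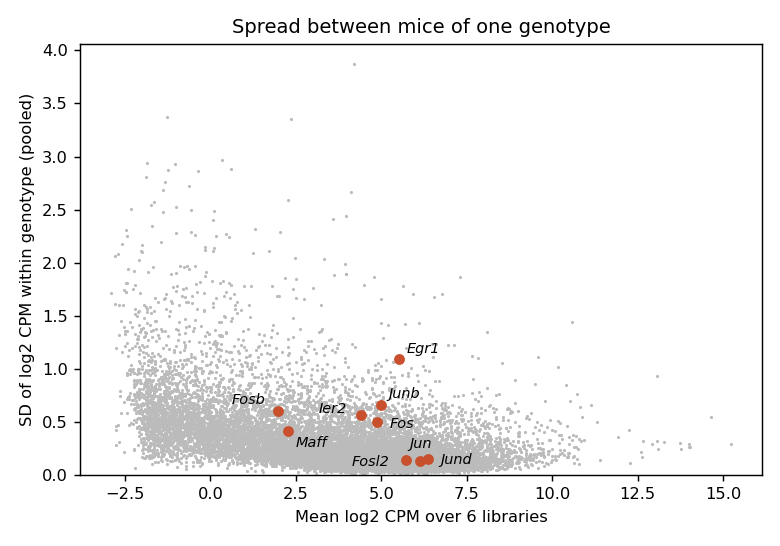
SD of log2 CPM within genotype, pooled over both genotypes (vertical axis), against the mean log2 CPM of the 6 libraries (horizontal axis), for all genes tested (grey) and 9 AP-1 and immediate early factors (orange). Egr1 stands at an SD of 1.09, whereas Jun, Fosl2 and Jund lie between 0.133 and 0.150.

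Cebpa_ASKO 3 was the highest of the 6 libraries for 8 of the 10 genes, the exceptions being Fosb and Fosl1. Over all genes tested it was the highest for 13.4%. Its level over the mean of the other two Cebpa_ASKO libraries was 4.95-fold for Egr1, 2.57-fold for Junb, 2.32-fold for Ier2 and 1.79-fold for Fos, but 1.06-fold for Jun and 1.14-fold for Fosl2. Cebpa_ASKO 2 was the lowest library for Egr1, Junb, Ier2 and Fos. In Cebpa_ASKO 3 the summed skeletal muscle markers were the lowest of the genotype, at 1999 CPM against 3055 and 5776 CPM. Smooth muscle and pericyte markers were also lowest there, at 809 CPM against 911 and 1019 CPM. Highest there were the macrophage (2650 against 1951 and 1967 CPM), fibroblast and progenitor (11934 against 9970 and 9640 CPM) and endothelial markers (356 against 284 and 271 CPM). Summed lymphocyte and mammary epithelium markers were highest there as well, at 93.5 and 1716 CPM, and adipocyte markers lay between the other libraries of the genotype. The part of these cell types in the levels of the factors was not tested.

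**Figure D3:**
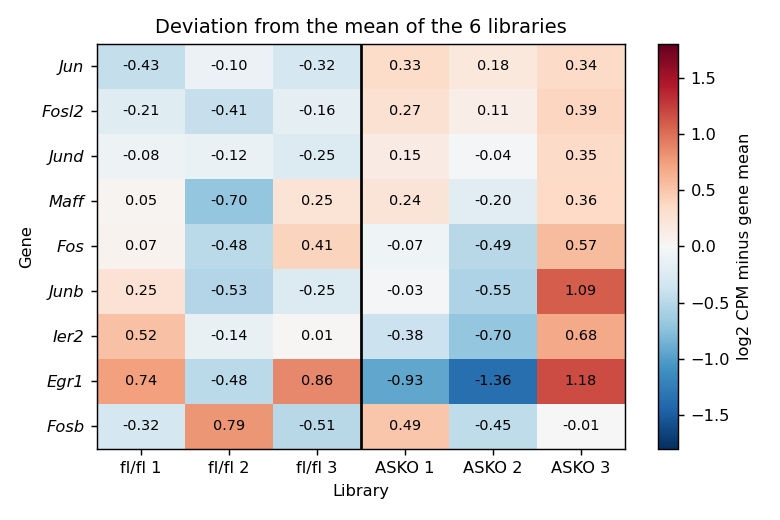
Deviation of log2 CPM from the mean of the 6 libraries for 9 genes (rows) and 6 libraries (columns), with the line between the genotypes. Jun, Fosl2 and Jund are below their means in every Cebpa_fl/fl library and above them in every Cebpa_ASKO library except Jund in Cebpa_ASKO 2 (-0.04), and Junb, Ier2 and Egr1 reach 1.09, 0.68 and 1.18 in Cebpa_ASKO 3.

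Likeness was measured as the root mean square difference of centred log2 CPM over the 6 libraries, where 0 is the same profile. Fosl2 and Jund were each other's nearest gene of the group (0.156), and Fosl2 was also nearest to Jun (0.173). Fos and Maff were nearest to each other (0.223), as were Junb and Ier2 (0.319), and Ier2 was the nearest to Egr1 at a distance of 0.558. Among 12515 other genes tested, those nearest to Fos were Socs2 (0.122), Gja1 (0.153) and Trp53i11 (0.158). Socs2, which encodes a suppressor of cytokine signalling, measured 17.6 to 29.1 CPM in Cebpa_fl/fl and 19.4 to 38.5 CPM in Cebpa_ASKO. Its highest library was Cebpa_ASKO 3, as for Fos. The points share libraries, so the distances are descriptions.

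Other AP-1 family and partner genes were counted from a list of 13 (ATF, BATF, JDP2, CREB5 and Maf genes), all of which were tested. By edgeR's quasi-likelihood test 0 were called, 3 had an unadjusted p below 0.05, against 19.8% of all genes, and DESeq2 called 2, against 10.7% of all genes. The log2 fold changes were positive for 11 and negative for 2, with a median of 0.27. Atf2, a partner of c-Jun, had the smallest p, with 48.4, 46.5 and 49.3 CPM in Cebpa_fl/fl and 62.8, 62.9 and 57.0 CPM in Cebpa_ASKO (log2 fold change 0.34, adjusted p = 0.0595). Mafa, a large Maf factor known from pancreatic beta cells, lay at 0.312, 0.721 and 0.657 CPM against 1.49, 2.76 and 0.965 CPM (log2 fold change 1.62, adjusted p = 0.136). The genotypes did not overlap for either gene. In 4 of the 13, these 2 among them, every Cebpa_ASKO library was above every Cebpa_fl/fl library, against 12.9% of all genes tested. In 0 it was below, against 13.2%. Neither Atf2 nor Mafa was called by edgeR's quasi-likelihood test, and they were the 2 that DESeq2 called (adjusted p = 0.0114 for Atf2 and 0.0336 for Mafa).

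Of 44 other immediate early genes 43 were tested, and 2 were called, both higher. Of all genes, 1.39% were called higher and 5.23% in either direction. The count lies above the first share and near the second, and it rests on 2 genes. By edgeR's quasi-likelihood test 6 had an unadjusted p below 0.05, against 19.8% of all genes, and DESeq2 called 2, against 10.7%. Neither of these counts exceeded its share. In 6 every Cebpa_ASKO library was above every Cebpa_fl/fl library, against 12.9% of all genes, and in 1 below, against 13.2%. The log2 fold changes were positive for 29 and negative for 14, with a median of 0.16. Klf6, a zinc finger factor of the Krüppel-like family, measured 78.9, 82.9 and 77.7 CPM in Cebpa_fl/fl and 121, 111 and 119 CPM in Cebpa_ASKO. The genotypes were clearly apart, with a log2 fold change of 0.55 (SE 0.0789, adjusted p = 0.0118), and the call was lost without Cebpa_fl/fl 1 (adjusted p = 0.0570), Cebpa_fl/fl 3 (0.0519) or Cebpa_ASKO 1 (0.0711). Myc, the growth regulator that pairs with MAX, measured 25.8, 26.2 and 23.1 CPM against 33.9, 35.9 and 32.8 CPM. Its log2 fold change was 0.45 (SE 0.0862, adjusted p = 0.0344), and the call was kept without Cebpa_fl/fl 2 (0.0496) and lost without Cebpa_fl/fl 1 (0.0934), Cebpa_fl/fl 3 (0.0907), Cebpa_ASKO 1 (0.133), Cebpa_ASKO 2 (0.157) or Cebpa_ASKO 3 (0.0758).

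The route to these promoters runs through MAP kinases, ELK factors and serum response factor. Of 24 genes of this route, all tested, edgeR's quasi-likelihood test called 0, 4 had an unadjusted p below 0.05, against 19.8% of all genes, and DESeq2 called 2, against 10.7%. Neither count exceeded the share of all genes. The log2 fold changes were positive for 13 and negative for 11, with a median of 0.014. Elk1, which joins DNA-bound serum response factor at immediate early promoters, was at 21.6, 22.6 and 23.4 CPM in Cebpa_fl/fl and at 14.4, 15.8 and 17.9 CPM in Cebpa_ASKO (log2 fold change -0.49, adjusted p = 0.0524). Elk1 was lower in every Cebpa_ASKO library than in any Cebpa_fl/fl library, which 13.2% of all genes tested also showed. It did not pass edgeR's quasi-likelihood test, while DESeq2 called it (adjusted p = 0.00535).

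Of 30 genes described as AP-1 targets, 28 were tested. By edgeR's quasi-likelihood test 0 were called, 6 had an unadjusted p below 0.05, against 19.8% of all genes, and DESeq2 called 4, against 10.7% of all genes. The log2 fold changes were positive for 19 and negative for 9, with a median of 0.26. In 7 of the 28 every Cebpa_ASKO library was above every Cebpa_fl/fl library, against 12.9% of all genes, and in 0 below, against 13.2%. Ezr, which encodes the membrane and cytoskeleton linker ezrin, measured 83.1, 50.5 and 99.4 CPM in Cebpa_fl/fl and 149, 163 and 168 CPM in Cebpa_ASKO (log2 fold change 1.04, adjusted p = 0.0591). Thbs1, encoding the matrix protein thrombospondin, measured 52.2, 54.9 and 52.2 CPM against 99.9, 65.5 and 92.5 CPM (log2 fold change 0.69, adjusted p = 0.0602). The genotypes did not overlap for either gene. Neither passed edgeR's quasi-likelihood test, while DESeq2 called both (adjusted p = 0.00116 for Ezr and 0.00428 for Thbs1). The part of the mammary epithelium, whose markers are given above, in the Ezr level was not tested.

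Heat shock genes, a second class of rapidly induced genes, numbered 12, all tested. By edgeR's quasi-likelihood test 0 were called, 6 had an unadjusted p below 0.05, against 19.8% of all genes, and DESeq2 called 3, against 10.7% of all genes. The log2 fold changes were positive for 11 and negative for 1, with a median of 0.33. Bag3, a co-chaperone, had a log2 fold change of 0.34 (adjusted p = 0.0598). Hspb1, a small heat shock protein gene, measured 29.0, 34.5 and 30.8 CPM in Cebpa_fl/fl and 52.3, 64.5 and 39.5 CPM in Cebpa_ASKO (log2 fold change 0.73, adjusted p = 0.0760). None of the 12 had its highest level in Cebpa_ASKO 3, as 13.4% of all genes tested did.

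**Figure D4:**
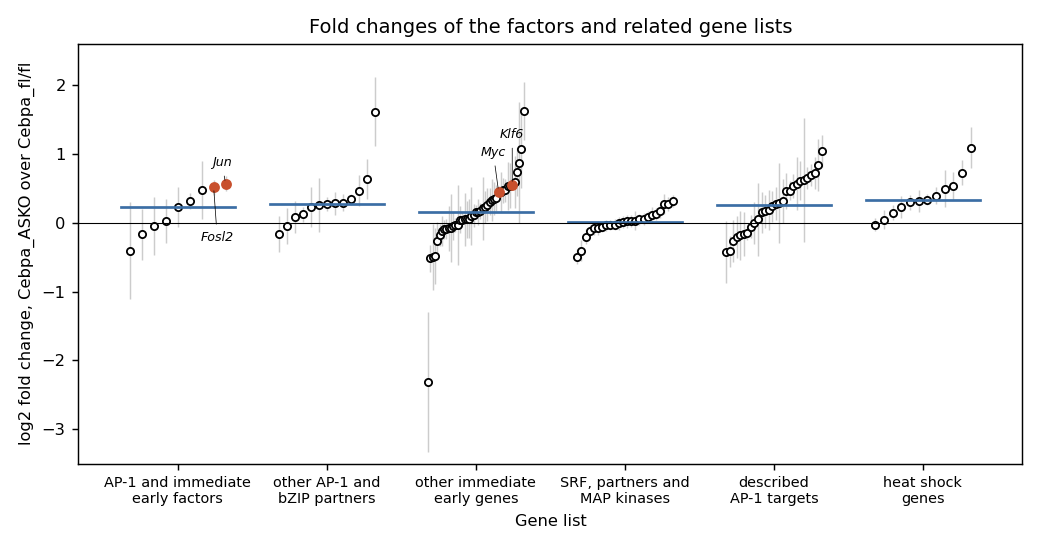
Log2 fold change of Cebpa_ASKO over Cebpa_fl/fl with its standard error (grey lines) for each tested gene of 6 lists, sorted within the list, with called genes in orange and the list median as a blue bar. The called genes are Jun and Fosl2 of the AP-1 and immediate early factors and Klf6 and Myc of the other immediate early genes, and the medians run from 0.014 to 0.33.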

How the data were processed

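Bulk poly-A RNA-seq (Illumina TruSeq, paired-end, NextSeq 500) was analysed from whole inguinal fat of 6 mice, 3 of each genotype, grouped by the sample titles. The authors deposited, for each transcript of each library, the estimated count that kallisto gives, without normalization, and the transcript length. They also deposited TPM, length-normalized values with the same sum in each library, per transcript and per gene symbol. The submitters' processing notes name kallisto 0.44.0 and the builds GRCm38.p6 and GRCh38.p12. The transcript annotation and the strand setting are not given in the sources used here. The study names DESeq2 for its tests.

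Of 118489 transcripts 116816 (98.6%) matched GENCODE M21 (GRCm38), which holds 99.5% to 99.6% of the counts of a library. The estimated counts were summed per symbol, for 35999 of 36144 symbols, and rounded to whole numbers. Totals ran from 33141769 to 49477671 counts, and counting error is small beside the spread between mice except for Fosl1. Genes were tested by quasi-likelihood in edgeR (glmQLFit, glmQLFTest), with TMM factors of 0.956 to 1.06 and edgeR's default low-count filter, which left 16069 of 23368 genes. P-values were adjusted by Benjamini-Hochberg over all of them and called below 0.05. Log2 CPM used a prior count of 2. The test was checked on simulated counts. Promoter sequences were taken from RefSeq (GRCm38.p6). Tools were edgeR 4.0.16, DESeq2 1.42.0 and limma 3.58.1 under R 4.3.3, with numpy 2.4.6, pandas 2.3.3 and matplotlib 3.10.9 under Python 3.11.15.

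The genes and lists were chosen with earlier results of these data known, so no list was tested as a whole. Named are the 10 factors and Cebpa, the called genes of each other list or, where there were none, the 2 with the smallest p, and the genes nearest in profile. A gene that this rule names is not reported here. Alternatives were DESeq2, its size factors, total-count scaling, other filters, a length offset, limma on log2(TPM + 1) and log2(TPM + 0.1), the replicate number as a block, and each library left out in turn. The Jund sum was added after the data were seen.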

Additional observations from a re-analysis of the deposited data

How the results depend on the processing

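Jun and Fosl2 kept their direction in every alternative, and their calls did not hold in all. Of the factors, 2 were called in the main test and by DESeq2, 1 with DESeq2's size factors in edgeR, with no filter or with the length offset, 0 with limma on log2(TPM + 1), on log2(TPM + 0.1) or on log2(TPM + 1) with no filter, and 0 to 1 with a library left out. Fosl2 stood at 0.51 with the size factors (adjusted p = 0.0524), 0.51 with no filter (0.0521), 0.52 with the length offset (0.0600), and, by limma, 0.53 (0.0877), 0.58 with the smaller pseudocount (0.0852) and 0.53 with no filter (0.159). Jun stood, by limma, at 0.61 (0.0686), 0.63 (0.0698) and 0.61 (0.134). With a library left out they ran from 0.43 to 0.57 for Fosl2 and from 0.50 to 0.65 for Jun. The other immediate early genes called fell from 2 to 1, 1 and 0 in the 3 limma fits, and ran from 0 to 3 with a library left out. All genes called rose from 840 to 1813 with DESeq2, fell to 359 by limma with no filter, and ran from 311 to 922 with a library left out. Fewer samples are tested in the last case, and in the others the cause was not tested.

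Signs of uncalled genes turned. Fosb was 0.025 and 0.081 by limma with the 2 pseudocounts and 0.025 with no filter. With a library left out the log2 fold changes ran from -0.33 to 0.46 for Fosb, -0.33 to 0.25 for Fos, -0.15 to 0.77 for Junb, -0.016 to 0.43 for Maff and -0.71 to 0.073 for Ier2. Ezr was called in 7 of its 16 alternatives. Cebpa was called in all of its own.

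Same-numbered libraries correlated at 0.07, 0.03 and -0.20 in their deviations from the genotype means, and unlike-numbered libraries at -0.18 to 0.15. Deviations from means of 3 mice cannot decide whether the replicate numbers pair the samples. With the replicate number as a block, 370 genes were called, with 0 of the factors and 0 of the other immediate early genes among them. Under this block Jun was 0.57 (adjusted p = 0.129), Fosl2 0.52 (0.0659) and Fosb 0.038.

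With 3 mice a genotype, precision was limited by the spread between mice, with standard errors of 0.32 to 0.70 on the log2 scale for Egr1, Junb, Ier2 and Fos and 0.11 to 0.12 for Jun, Fosl2 and Jund.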

Other observations

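Single libraries carried several of the other immediate early genes, which were chosen here after their values were seen. Of the 43 tested, 13 had their highest level in Cebpa_ASKO 3, against 13.4% of all genes tested. Egr2, a relative of Egr1, measured 11.4, 4.26 and 12.9 CPM in Cebpa_fl/fl and 6.97, 4.06 and 41.2 CPM in Cebpa_ASKO, the same order of libraries within Cebpa_ASKO as Egr1. Socs3, an inhibitor of cytokine signalling, ran the other way in Cebpa_ASKO, at 100.4, 138 and 30.9 CPM, with 51.2, 22.0 and 55.2 CPM in Cebpa_fl/fl. Nr4a1, an orphan nuclear receptor, was highest in Cebpa_fl/fl 1, at 48.9 CPM, against 9.20 and 17.0 CPM in the other Cebpa_fl/fl libraries and 25.1, 17.3 and 31.0 CPM in Cebpa_ASKO.

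Dusp2, a phosphatase of MAP kinases that is abundant in lymphocytes, measured 9.24 CPM in Cebpa_fl/fl 1 and 0.996 and 0.678 CPM in the other Cebpa_fl/fl libraries, with 0.571, 0.613 and 0.988 CPM in Cebpa_ASKO. Summed lymphocyte markers stood at 537 CPM in Cebpa_fl/fl 1 and between 71.6 and 112 CPM in the other 5 libraries. Dusp1, its relative that is induced with Fos, was lower in every Cebpa_ASKO library (24.1, 33.9 and 34.7 CPM) than in any Cebpa_fl/fl library (55.3, 40.2 and 37.2 CPM), which 13.2% of all genes tested also showed, and it was not called (log2 fold change -0.52, adjusted p = 0.218 by edgeR's quasi-likelihood test).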
